A study of Mus musculus with 4 samples.

Results

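The 9 genes described here are Nf1, Evi2a, Evi2b, Nras, Hras1, Sos1, Rasa1, Rasa4 and Rasgrp1. They were chosen by symbol, as Ras genes, regulators of Ras and the genes that lie inside Nf1, with earlier results of these data known. They are 9 of the 21889 genes in the deposited tables. All were listed in each of the 4 libraries. Levels are FPKM, fragments per kilobase of transcript scaled to the depth of the library. A gene was called expressed when its FPKM averaged at least 1 across the libraries, which held for 10066 genes and for 8 of the 9. Each of those 8 had at least 3.86 FPKM in every library, so none passed through a single line. Rasgrp1 did not pass.

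RNA was sequenced from 4 acute myeloid leukaemia cell lines of BXH-2 mice, an inbred strain in which proviral insertions near growth-controlling genes give rise to myeloid leukaemia. B117P and B140P are the parental lines, sensitive to the nucleoside drug cytarabine (Ara-C), with labelled IC50 values near 150 and 110 ng/ml. B117H and B140H are the highly resistant lines derived from them, B117H from B117P and B140H from B140P, with values near 160 and 60 µg/ml. Each parental line and its derivative form a lineage, B117 or B140. All 4 lines carry the label of the BXH-2 strain and were grown in ASM medium without Ara-C. The text on exposure to rising Ara-C concentrations stands on all 4 records, parental ones included. Each resistant phenotype is represented by 1 derived line and each line by 1 library, so values within a line carry no replicate error, and an effect of the drug history cannot be told apart from any other difference between a parent and its single derivative.

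Ras proteins are membrane-bound switches that signal while they hold GTP. Exchange factors such as Sos1 and Rasgrp1 load GTP downstream of receptors, and GTPase-activating proteins such as neurofibromin (the product of Nf1), Rasa1 and Rasa4 return Ras to its inactive state. Active Ras drives the Raf, MEK and ERK kinases and the PI3K pathway, and loss of NF1 or activating mutation of a Ras gene is a known route to myeloid leukaemia. In BXH-2 mice the Evi2 site inside Nf1 is a recurrent place of proviral insertion. The small genes Evi2a and Evi2b, which encode membrane proteins, lie there on the opposite strand. Proviral insertions and mutations in these lines were not analysed here.

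The low FPKM values were spaced as whole fragments in 72.7 to 82.0% of cases, which put the depth at an estimated 19220000 to 24520000 fragments per library. At that depth 3 fragments on a transcript of 2 kb amount to 0.0612 to 0.0780 FPKM. Intervals given with ratios below are exact Clopper-Pearson 95% intervals from these estimated fragments and cover counting error only. The myeloid progenitor markers (Kit, Mpo, Ctsg, Cebpa and Csf2rb) summed to 2269 and 954 FPKM in B117P and B117H against 365 and 295 in B140P and B140H, and Kit was listed at 0 in both B140 lines. The granulocyte and monocyte markers summed to 103 and 54.2 FPKM in the B117 lines against 6.36 and 7.60 in the B140 lines. Of the 4 B cell markers, 1 was above 1 FPKM, Cd79a at 6.63 and 16.1 FPKM in B140P and B140H, while the T cell and mast cell markers summed to at most 0.133 FPKM in any line. Ctsg, at 337 and 270 FPKM, made up most of the progenitor sum in the B140 lines. Cebpa, at 12.5 and 17.7 FPKM, Csf2rb, at 4.75 and 5.60, and Csf1r, at 3.73 and 5.31, were also present there, at lower levels than in the B117 lines, while Lyz2 was at 0.765 and 0.566 FPKM. The tables of the lineages also differed from each other at 6 listed loci and within a lineage at 0. Whether the lineages were quantified in 1 run or separately is not given in the sources used here. An effect of that on levels compared across lineages was not tested. The differences in marker sums and listed loci run along the same division as the lineage comparisons below. Markers also moved within lineages. Mpo was lower in both resistant lines, at 1450 and 473 FPKM in B117P and B117H and 10.4 and 0.913 in B140P and B140H. In lineage B117, Lyz2 went from 68.7 to 31.2 FPKM and Fcgr3 from 5.48 to 1.31, while Kit and Itgam were higher in B117H. Cebpa, Csf2rb and Csf1r were higher in B140H than in B140P. The part of any of this in the comparisons below was not tested.

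The clearest contrast among the 9 genes lay between the lineages. Nf1, Evi2a and, on another chromosome, Sos1 were lower by 2-fold or more in both B140 lines, as were 6.77% of all expressed genes. Nf1 measured 14.2 FPKM in B117P and 13.9 in B117H, against 3.86 in B140P and 4.30 in B140H. Both B117 lines were high and both B140 lines low. The level in B140P was 3.67-fold below that in B117P (ratio 0.273, interval 0.253 to 0.294), and the level in B140H was 3.23-fold below that in B117H (ratio 0.309, 0.290 to 0.330). On the scale used for calling, log2 of FPKM + 1, those differences were -1.64 and -1.49. In material from whole cultures, fewer cells of a type and less RNA per cell cannot be told apart. Within the lineages the gene stayed close to its parent: the ratio of B117H to B117P was 0.983 (0.937 to 1.03) and that of B140H to B140P 1.11 (1.02 to 1.22).

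Evi2a showed the largest difference of the 9. It measured 134 FPKM in B117P, 125 in B117H, 6.52 in B140P and 5.23 in B140H. In the B117 lines it was the highest of all 9 genes, and in the B140 lines it lay in the lower part of the 8 expressed ones. The fold between lineages was 20.5 for the parental lines (ratio 0.0488, 0.0418 to 0.0565) and 23.9 for the resistant lines (0.0419, 0.0360 to 0.0486). Resistant and parental lines were close, with log2 ratios of -0.10 for B117H and -0.27 for B140H.

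Evi2b, its neighbour, differed between lineages in the same direction by a smaller distance. The 4 values were 49.9 FPKM in B117P, 36.3 in B117H, 21.7 in B140P and 24.2 in B140H. Both B117 lines again lay above both B140 lines, but the gap narrowed among the resistant lines. The parental lines differed 2.30-fold (log2 difference -1.16), past the 2-fold rule, and the resistant lines 1.50-fold (-0.57), short of it. The lineages differed in how the pair was balanced. Evi2a exceeded Evi2b by 2.68 times in B117P and 3.44 times in B117H, whereas the FPKM ratio of Evi2a to Evi2b was 0.300 in B140P and 0.216 in B140H. Relative to Nf1, Evi2b was higher in the B140 lines (5.62 times in each) than in the B117 lines (3.52 and 2.61 times), while Evi2a was lower (1.69 and 1.22 against 9.44 and 8.98 times). The genes of this locus therefore did not differ between lineages by a common factor.

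The deposited tables place Nf1, Evi2a, Evi2b and Omg on 1 shared span, chr11:79153394-79395111 of the mm9 build, which is that of Nf1. In the GENCODE M21 annotation of GRCm38, Evi2a, Evi2b and Omg, the gene of a myelin glycoprotein, sit on the minus strand within intron 36 of Nf1, which lies on the plus strand, has 58 exons and gives that intron a length of 59.719 kb. No exonic base is shared between Nf1 and Evi2a or Evi2b (0 in each pair). Whether the reads keep their strand is not given in the sources used here, so fragments of unspliced Nf1 RNA and of the genes inside its intron cannot be told apart. Omg, in the same intron, was listed at 0.228, 0.0929, 0.0963 and 0 FPKM in B117P, B117H, B140P and B140H, an estimated 11, 4, 4 and 0 fragments. A read-through transcript of the Evi2 pair shares 442 exonic bases with Evi2a and 1831 with Evi2b. It was not analysed here, and its fragments cannot be told apart from those of either gene in that overlap.

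The promoters of Nf1 and Evi2b are shown because these genes overlap and differ between lineages by different amounts. Each sequence is the RefSeq (GRCm38.p6) window from 250 bases before to 50 after the gene's start, read in the direction of the gene. Capitals mark matches on either strand to the GC box GGGCGG, the CCAAT box CCAAT or the PU.1-type ETS site GAGGAAGT. The Nf1 window is chr11:79339642-79339941 on the plus strand and that of Evi2b chr11:79523713-79524012 on the minus strand.
Nf1: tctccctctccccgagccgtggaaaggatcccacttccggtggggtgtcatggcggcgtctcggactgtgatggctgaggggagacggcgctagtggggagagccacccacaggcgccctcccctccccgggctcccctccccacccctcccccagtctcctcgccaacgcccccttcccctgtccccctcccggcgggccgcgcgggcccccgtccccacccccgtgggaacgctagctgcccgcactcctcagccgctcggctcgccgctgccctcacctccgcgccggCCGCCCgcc
Evi2b: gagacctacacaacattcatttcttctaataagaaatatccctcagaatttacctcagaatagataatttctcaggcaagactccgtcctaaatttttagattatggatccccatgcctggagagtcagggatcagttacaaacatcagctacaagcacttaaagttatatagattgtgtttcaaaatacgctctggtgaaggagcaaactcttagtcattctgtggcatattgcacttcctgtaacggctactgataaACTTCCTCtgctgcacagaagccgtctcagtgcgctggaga
The Nf1 window was rich in G and C, with a GC content of 75.7%, 30 CpG dinucleotides and 1 GC box. The Evi2b window had a GC content of 41.0%, 5 CpG dinucleotides, no GC box and 1 match to GAGGAAGT. Of 32851 windows of the same length, 35.7% held a GC box, 37.4% a CCAAT box and 3.20% GAGGAAGT. A match is a string of letters and not a measured binding site.

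**Figure D1:**
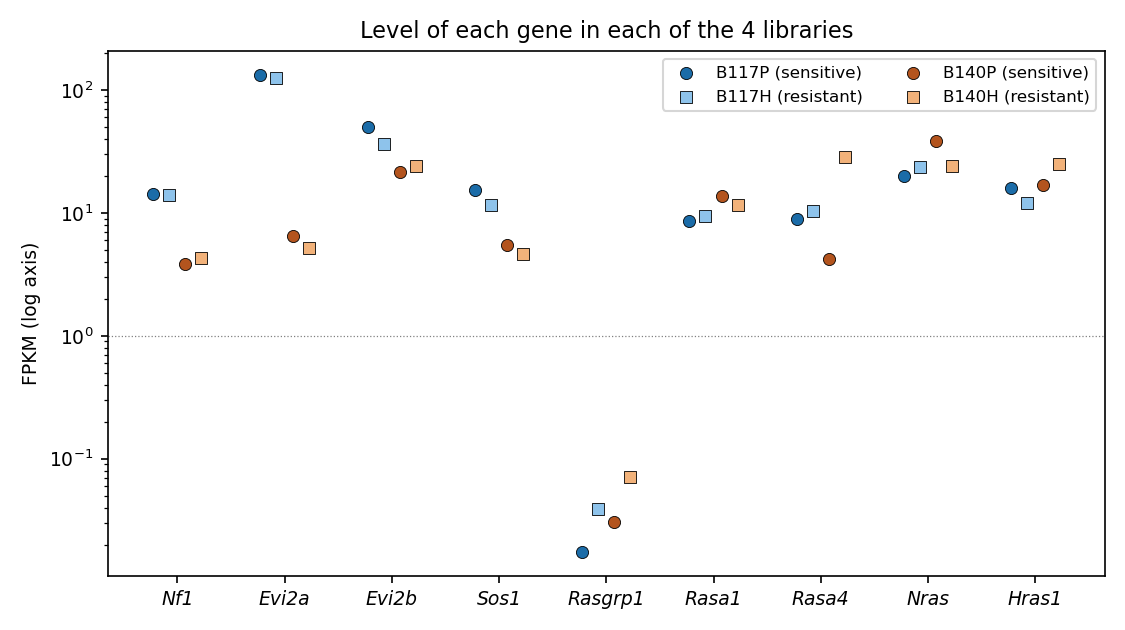
Level of each of the 9 genes in each of the 4 libraries, as FPKM on a log axis, with circles for the sensitive and squares for the resistant lines, blue for lineage B117 and orange for B140. The dotted line marks 1 FPKM, and each point is 1 library without an error. Nf1, Evi2a, Evi2b and Sos1 have both blue points above both orange points, and Nras, Hras1 and Rasa1 the reverse. The share of all expressed genes that separate by lineage was not counted. Rasa4 stands out in B140H at 28.3 FPKM, and Rasgrp1 lies below 0.1 FPKM in every line.

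The genes around Nf1 did not share its difference. Among the 20 nearest expressed genes, 10 on each side over 1.89 Mb, 0 of 20 passed the 2-fold rule between the parental lines, where 16.6% of all expressed genes did in either direction, and their log2 differences ran from -0.51 to 0.61 with a median of 0.27. Wsb1, on one side 85.2 kb from Nf1, measured 52.5 FPKM in B117P, 40.3 in B117H, 52.9 in B140P and 57.2 in B140H. Wsb1 belongs to a ubiquitin ligase, and its parental levels were alike. Rab11fip4, a Rab11 effector 9.602 kb away on the other side, measured 1.77, 1.37, 1.25 and 1.52 FPKM in the same order. Between the resistant lines 2 of the 20 passed the rule, Poldip2 as higher in B140H (log2 difference 1.13) and Lgals9 as lower (-1.56), against a background of 18.9%. The median over all expressed genes was 0.15 in that comparison, and with it subtracted Poldip2 misses the rule. These 2 names were chosen after their values were seen.

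**Figure D2:**
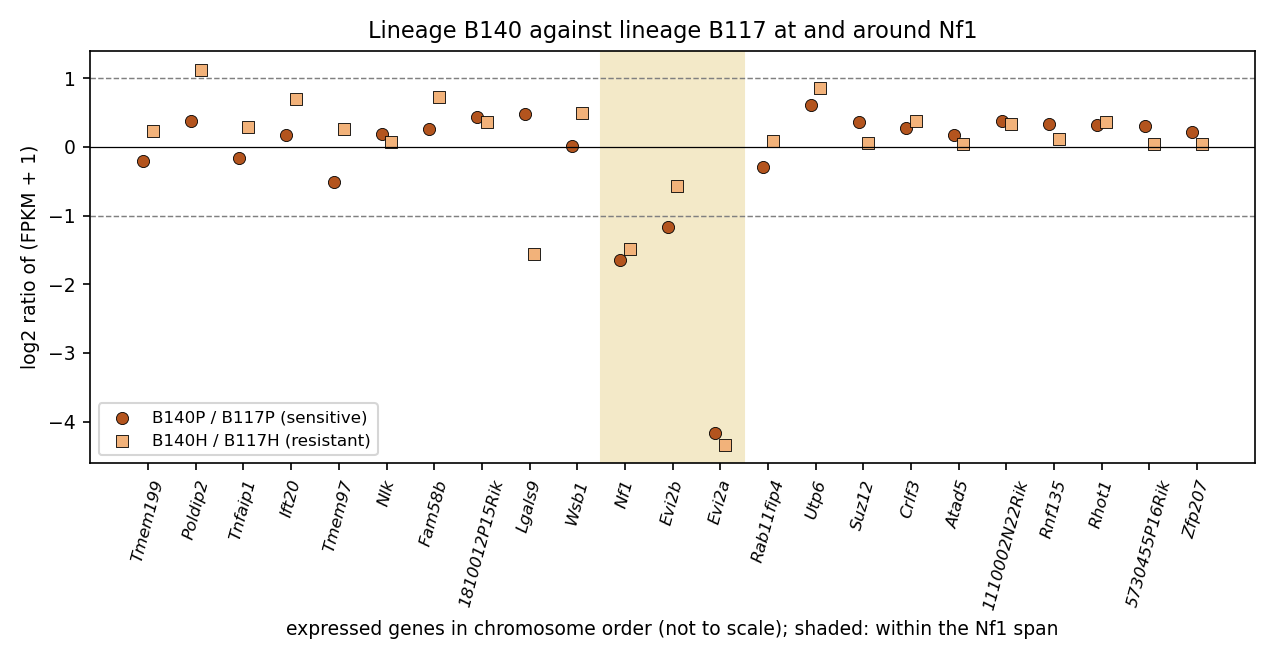
Log2 ratio of FPKM + 1 of lineage B140 over lineage B117 for the expressed genes at and around Nf1, in chromosome order, with circles for the parental and squares for the resistant lines. The shaded block holds Nf1, Evi2b and Evi2a, and dashed lines mark 2-fold. Outside the block, Poldip2 and Lgals9 are past 2-fold, each in the resistant lines.

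Across the whole set of 8 expressed genes, 4 were lower by 2-fold or more in B140P than in B117P (Nf1, Evi2a, Evi2b and Sos1) and 0 were higher. The background for lower was 10.8% and for higher 5.83% of all expressed genes. The median log2 difference of the 8 was -1.05, beside 0.00 over all expressed genes. Between the resistant lines 3 of the 8 were lower in B140H (Nf1, Evi2a and Sos1), with a background of 9.19%, and 1, Rasa4, was higher, with a background of 9.69%. Their median there was -0.26, beside 0.15 over all expressed genes. Lower in both comparisons were 3 of 8, where 6.77% of all expressed genes were, and higher in both were 0 of 8, where 3.66% were. Between pairs, 0 of the 8 changed the same way in each lineage by 2-fold, as 0.228% of all expressed genes did. A limma fit with terms for lineage and for resistance, across all expressed genes and with each lineage represented by its 2 related lines, was added after the data were seen. At a Benjamini-Hochberg adjusted p of 0.05 it called 3 of the 8 lower in lineage B140, where 6.83% of all expressed genes were, and 0 of 8 higher, where 4.12% were (25.1% of genes had an unadjusted p under 0.05). These were Evi2a (log2 difference -4.25, SE 0.23, limma adjusted p 0.000617), Nf1 (-1.57, SE 0.23, limma adjusted p 0.0125) and Sos1 (-1.25, SE 0.23, limma adjusted p 0.0252), each lower in 2 of 2 comparisons. Evi2b, at -0.87 (SE 0.26), had a limma adjusted p of 0.107. A parental line and its derivative are not independent samples of a lineage. The 1 residual degree of freedom measures how far the resistant-to-parental changes of the lineages disagree, moderated by a prior from all expressed genes. No spread between independent lines of a lineage enters these p-values. The genes were not drawn at random but chosen with earlier results of these data known, and members inside Nf1 share a locus. These shares and p-values therefore describe the set only and are not independent support for the contrast.

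**Figure D3:**
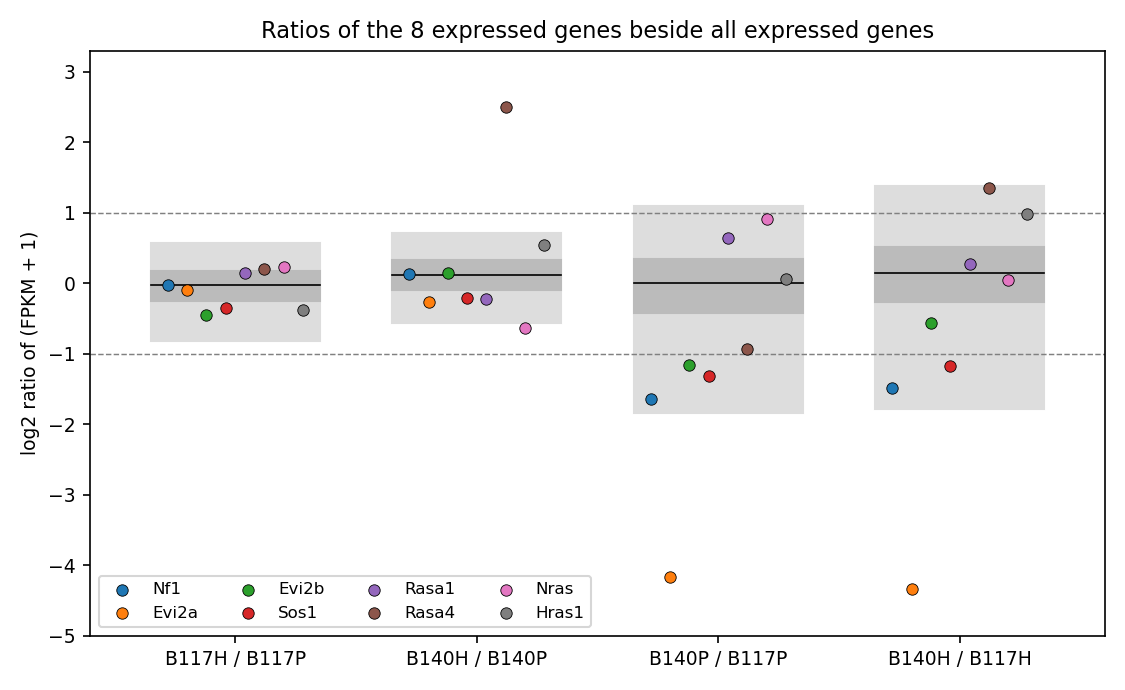
Log2 ratios of FPKM + 1 of the 8 expressed genes (points) in the 4 comparisons, over grey bands that hold the central 5 to 95% (light) and 25 to 75% (dark) of all 10066 expressed genes. The black line in each band is the median over those genes and dashed lines mark 2-fold. Rasa4 lies above the band in lineage B140, and Evi2a lies far below it in both comparisons between lineages.

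Within the lineages few of the genes moved. In lineage B117, 0 of the 8 rose or fell by 2-fold, where 4.62% of expressed genes changed in either direction (1.41% higher and 3.21% lower), and the median log2 ratio of the 8 was -0.06 beside -0.03 over all genes. In lineage B140, 1 of the 8 rose and 0 fell, where 3.94% of expressed genes changed (2.31% rose and 1.63% fell), and the median was -0.04 beside 0.11. The median over all expressed genes lay 0.11 above 0 on the log2 scale in this lineage, and 0.15 above 0 between the resistant lines. Once the lineage median was subtracted, Nf1 in lineage B140 stood at 0.01 and Evi2b at 0.04. Upper-quartile scaling put them at -0.01 and -0.02, so neither has a settled direction there.

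The gene that rose was Rasa4, which encodes a calcium-responsive GTPase-activating protein for Ras. It measured 8.90 FPKM in B117P, 10.5 in B117H, 4.19 in B140P and 28.3 in B140H. The highest and the lowest value thus belonged to the same lineage, with both B117 lines between them. B140H exceeded its parent by 6.74-fold (interval 5.86 to 7.82), a log2 ratio of 2.49, or 2.38 relative to all genes. B117H exceeded its parent by 1.17-fold (1.04 to 1.33), a log2 ratio of 0.21. Between the parental lines Rasa4 was the member nearest to the 2-fold rule without passing it, along with Nras, at -0.93 against 0.91 for Nras. The Rasa4 span is chr5:136559786-136587730 in mm9, and it overlaps no other listed gene. Its promoter is shown as that of the gene with the change within a lineage. It is chr5:136083666-136083965 of GRCm38.p6, plus strand, from RefSeq and with capitals as above.
Rasa4: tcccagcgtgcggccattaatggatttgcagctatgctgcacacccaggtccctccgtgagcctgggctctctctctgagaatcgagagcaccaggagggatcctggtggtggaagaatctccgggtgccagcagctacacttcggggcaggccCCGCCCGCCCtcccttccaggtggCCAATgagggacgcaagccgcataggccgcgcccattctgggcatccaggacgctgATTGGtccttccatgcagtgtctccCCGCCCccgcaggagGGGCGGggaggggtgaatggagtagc
This window had a GC content of 64.7%, 16 CpG dinucleotides, 4 GC boxes, 2 of them overlapping, and 2 CCAAT boxes.

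The other GTPase-activating proteins put these levels in proportion. Rasa1, which binds activated growth factor receptors, measured 8.52 FPKM in B117P, 9.49 in B117H, 13.8 in B140P and 11.7 in B140H. Both B140 lines were above both B117 lines, with parental lines 1.62-fold apart (1.48 to 1.77) and resistant lines 1.23-fold (1.12 to 1.34), neither past 2-fold. The 9 listed genes of this class summed to 93.7, 97.1, 101 and 114 FPKM in B117P, B117H, B140P and B140H. Rasa3, named here after its values were seen, held the first place in every line, at 33.7, 35.5, 46.3 and 45.0 FPKM. Nf1 came second in both B117 lines, with 15.1 and 14.3% of the sum, and was 7th and 6th in B140P and B140H with 3.82 and 3.78%. Rasa4 was 4th in the B117 lines with 9.50 and 10.8%, 6th in B140P with 4.15% and 2nd in B140H with 24.8%. The sum therefore varied less between lines than its composition. Dab2ip, another protein of this class, fell in lineage B117 from 3.84 to 0.213 FPKM (log2 ratio -1.99). In lineage B140 it went from 0.775 to 0.0149 FPKM, a log2 ratio of -0.81. That misses the rule with the pseudocount of 1 and passes it with one of 0.1 (-2.93), so the lineages cannot be said to differ in this.

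**Figure D4:**
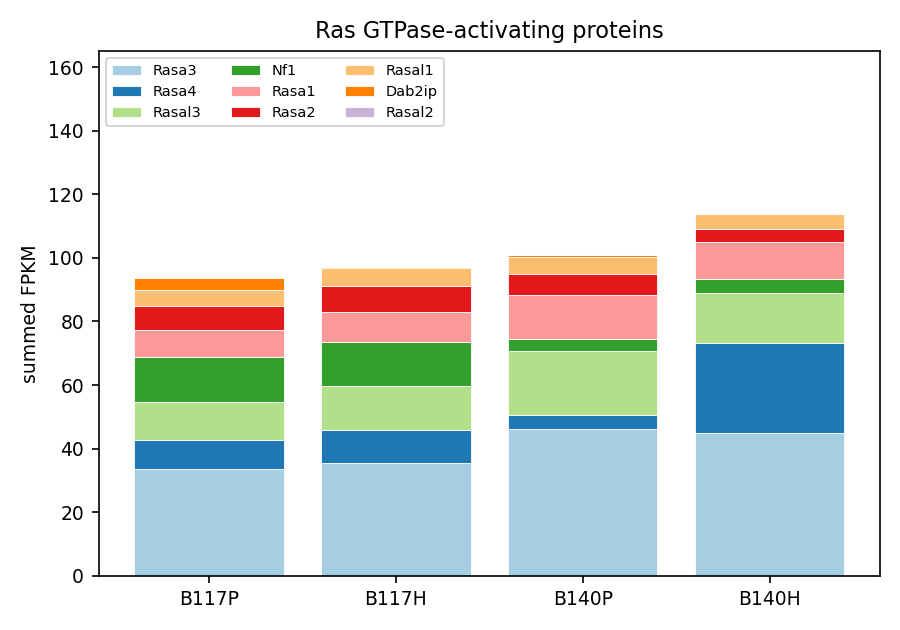
Summed FPKM of the 9 listed GTPase-activating proteins in each line, with 1 library per bar and segments for the genes. The sums lie between 93.7 and 114 FPKM, the Nf1 segment is small in both B140 lines and the Rasa4 segment is large in B140H.

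Both Ras genes of the set, Nras and Hras1, encode the switch itself and were expressed in all lines. Nras measured 19.8 FPKM in B117P, 23.5 in B117H, 38.3 in B140P and 24.3 in B140H. B140P stood above the other lines, and B140H and B117H could not be separated by counting error (ratio 1.03, 0.976 to 1.10). The parental lines differed 1.93-fold (1.82 to 2.04), and B140H was at 0.634 of its parent (0.602 to 0.668), a log2 ratio of -0.64, or -0.75 relative to all genes. Hras1, whose current symbol is Hras, measured 16.0, 12.1, 16.8 and 24.8 FPKM in B117P, B117H, B140P and B140H. Here B140H was highest and B117H lowest, and the parental lines were alike within counting error (ratio 1.05, 0.911 to 1.21). B140H exceeded its parent 1.48-fold (1.31 to 1.68) and B117H was at 0.757 of its own (0.649 to 0.881). The resistant lines were 2.05-fold apart in FPKM, and 0.98 apart on the log2 scale with the pseudocount, just short of the rule.

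The balance of the pair differed between lines. The FPKM ratio of Nras to Hras1 was 1.24 in B117P, 1.94 in B117H, 2.28 in B140P and 0.978 in B140H. It was thus higher in the resistant than in the parental line of lineage B117 and lower in that of lineage B140. Neither gene passed the 2-fold rule in any comparison. Nras spans chr3:102862208-102871837 and Hras1 chr7:148375833-148379903 in mm9.

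Among the exchange factors, Sos1 differed between lineages much as Nf1 did. Sos1 couples activated receptors to Ras, and it measured 15.2 FPKM in B117P, 11.7 in B117H, 5.50 in B140P and 4.63 in B140H. Both B117 lines lay above both B140 lines. The fold was 2.77 between the parental lines (ratio 0.361, 0.335 to 0.389) and 2.52 between the resistant lines (0.396, 0.366 to 0.428). Within the lineages Sos1 was lower in both resistant lines by less than the rule, at 0.767 of the parent in B117H (0.723 to 0.812) and 0.841 in B140H (0.767 to 0.922). Its paralogue Sos2, named after its values were seen, measured 6.37, 8.95, 11.7 and 7.65 FPKM. The ratio of Sos1 to Sos2 was 2.39 and 1.31 in B117P and B117H and 0.472 and 0.605 in B140P and B140H, so the prevailing member of the pair differed between lineages. Sos1 spans chr17:80793092-80879793 in mm9. Its promoter is shown for comparison with that of Nf1, which differs between lineages in the same direction. It is chr17:80480404-80480703 of GRCm38.p6, minus strand, from RefSeq.
Sos1: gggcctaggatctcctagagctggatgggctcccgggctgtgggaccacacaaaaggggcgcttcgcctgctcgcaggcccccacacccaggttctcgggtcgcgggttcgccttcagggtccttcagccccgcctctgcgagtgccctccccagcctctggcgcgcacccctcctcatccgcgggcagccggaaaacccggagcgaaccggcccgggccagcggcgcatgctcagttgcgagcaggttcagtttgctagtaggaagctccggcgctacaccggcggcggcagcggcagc
It had a GC content of 70.0%, 28 CpG dinucleotides and 0 matches to the GC box, the CCAAT box or GAGGAAGT.

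Rasgrp1, a diacylglycerol-responsive exchange factor best known from T cells, was near the limit of detection. It was listed at 0.0175 FPKM in B117P, 0.0392 in B117H, 0.0304 in B140P and 0.0707 in B140H, which is an estimated 2, 4, 3 and 9 fragments. The ratio of B140H to B117H, 1.80, had an interval from 0.504 to 8.02, so no difference was detectable at this depth. Most Rasgrp transcripts came from Rasgrp2, at 33.0, 47.3, 54.4 and 47.6 FPKM or 87.1 to 95.7% of the sum of the 4 genes. Rasgrp3 was lower in both B140 lines, at 0.255 and 0.129 FPKM against 2.55 and 2.26 in B117P and B117H. Both names were chosen after their values were seen. Rasgrp1 spans chr2:117105729-117168613 in mm9.

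Few genes of the wider pathway passed the 2-fold rule within the lineages. The lists held 12 expressed Ras family GTPases, 8 exchange factors, 15 adaptors and inhibitors upstream of Ras and 8 enzymes of Ras membrane processing. They also held 10 Raf, MEK and ERK kinases and 16 PI3K and Ral effectors. Of these genes 0 passed the rule in either lineage, where 4.62% of all expressed genes did in B117 and 3.94% in B140. The medians of these lists lay between -0.11 and 0.05 in lineage B117 and between -0.11 and 0.23 in lineage B140, beside -0.03 and 0.11 over all genes. The count of 0 rests on the pseudocount of 1. In FPKM alone, Rap2a was 2.44-fold and Cbl 2.06-fold lower in B140H than in B140P. Spred2 was 2.40-fold higher, at levels below 1 FPKM. These names were chosen after their values were seen. Of the 8 expressed GTPase-activating proteins, 1 fell in lineage B117 (Dab2ip) and 1 rose in lineage B140 (Rasa4), and the medians were 0.11 and -0.15.

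Of the 11 expressed genes that report ERK output, 3 passed the 2-fold rule in at least 1 lineage, and only these are described. The share of all expressed genes that did so in at least 1 lineage was not counted. In each lineage 4 of the 11 log2 ratios lay above 0 and 7 below. Epha2, a receptor tyrosine kinase induced by ERK signalling, measured 3.46 FPKM in B117P, 10.3 in B117H, 2.83 in B140P and 0.145 in B140H. It rose in lineage B117 and fell in lineage B140, with log2 ratios of 1.35 and -1.74. The immediate early gene Ier3 fell in lineage B117, from 8.20 to 0.506 FPKM (log2 ratio -2.61). Phlda1, also an ERK-induced gene, fell in lineage B140, from 4.26 to 1.30 FPKM (-1.19). In the other lineage each missed the rule, Ier3 with -0.63 in B140 and Phlda1 with -0.38 in B117, but passed it with a pseudocount of 0.1 (-1.12 and -1.49). In all, 1 of 11 rose and 1 fell in lineage B117, where 1.41% of all expressed genes rose and 3.21% fell. In lineage B140, 0 rose and 2 fell, where 2.31% rose and 1.63% fell. The median over the list was -0.36 for the B117 pair and -0.63 for the B140 pair, beside -0.03 and 0.11 over all genes.

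**Figure D5:**
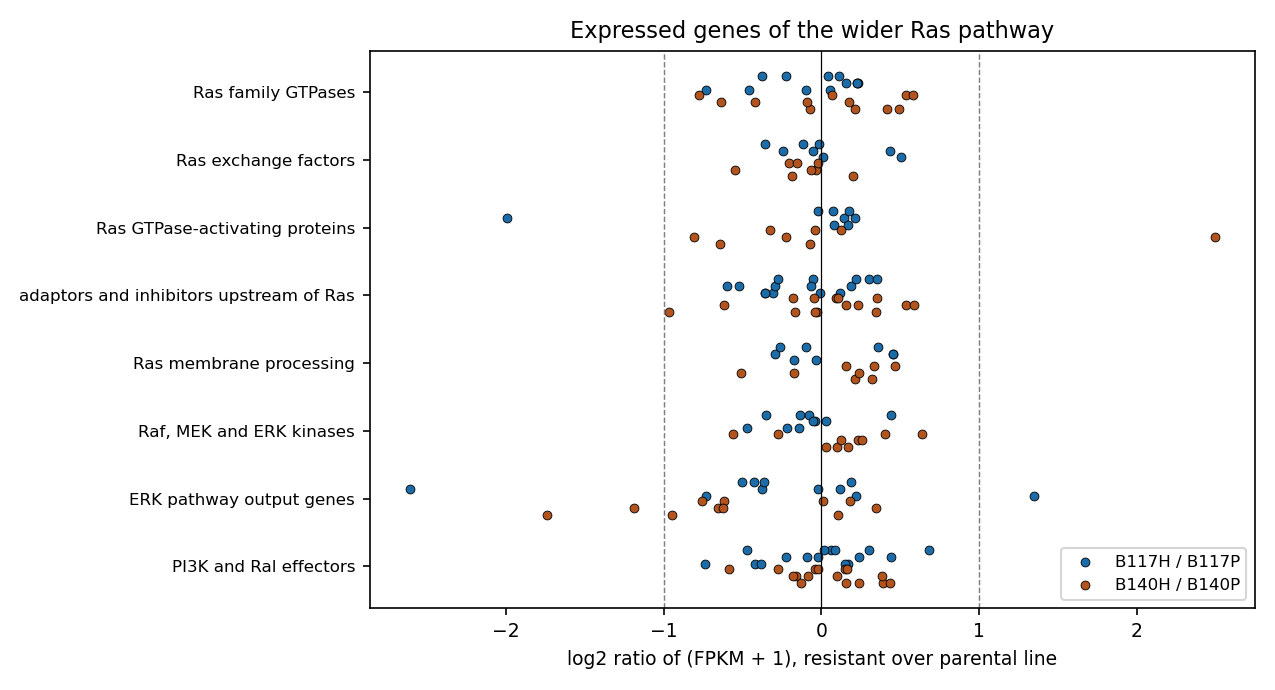
Log2 ratio of FPKM + 1, resistant over parental line, of each expressed gene of 8 lists of the Ras pathway, blue for lineage B117 and orange for B140. Each point is 1 gene from 1 pair of libraries and dashed lines mark 2-fold. Points past the dashed lines belong to the GTPase-activating proteins (Dab2ip and Rasa4) and the ERK output genes (Ier3, Epha2 and Phlda1).

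Between the lineages, 4 of the 85 expressed genes of these lists were lower in lineage B140 in both comparisons and 1 was higher, where 6.77 and 3.66% of all expressed genes were. These were Sos1 and Rasgrp3 of the exchange factors, Nf1 of the GTPase-activating proteins and Spred2 of the inhibitors, all lower in the B140 lines, and Phlda1 of the ERK output genes, higher. Phlda1 missed the rule between the resistant lines when libraries were centred (0.94 in place of 1.09). Spred2 belongs to a family of proteins that bring neurofibromin to the membrane. It was counted in 2 lists and is named after its values were seen. It measured 30.7 FPKM in B117P, 33.5 in B117H, 0.239 in B140P and 0.574 in B140H, 129-fold and 58.4-fold lower in lineage B140. Its relative Spred1 measured 36.2, 41.3, 48.3 and 31.1 FPKM and stayed within 2-fold throughout. Spred2 and Nf1 were thus low in the same 2 libraries, as were 6.77% of all expressed genes by the 2-fold rule. A link between the 2 genes was not tested.

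A paired test of resistant against sensitive lines across all expressed genes, with limma and lineage as a block, called 0 of the 8 genes and 0 of 10066 genes (0% of those tested) at a Benjamini-Hochberg adjusted p of 0.05. At an unadjusted p of 0.05 it listed 218 genes (2.17%). Rasa4 was 1 of them, with a log2 difference of 1.35 (SE 0.53), higher in 2 of 2 lineages, an unadjusted p of 0.0439 and a Benjamini-Hochberg adjusted p of 0.9995 from limma. Sos1 was lower in 2 of 2 lineages by -0.28 (SE 0.23) and Evi2a in 2 of 2 by -0.18 (SE 0.23), both with the same adjusted p from limma. The other 5 genes went opposite ways in the 2 lineages, with log2 differences between -0.20 and 0.08. How many of all expressed genes did so was not counted, and the medians over all of them were -0.03 and 0.11. With centred libraries Nf1 stood at 0.003 in lineage B117 and 0.01 in lineage B140, so its opposite signs did not hold. With 1 residual degree of freedom the test had little to estimate the spread from.

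The expressed genes closest to each called member over the 4 libraries were found by the root mean square difference of their centred log2 values. For Nf1 these were Psmb6, a proteasome subunit, at 0.0169, Fkbp1b at 0.0277 and Hnrpll at 0.0399. For Evi2a they were Oaf at 0.101, Cmtm3 at 0.113 and Ctnnd1 at 0.133, each listed at 0.0102 FPKM or less in the B140 lines and at 17.0 FPKM or more in the B117 lines. For Evi2b they were A2ld1 at 0.0125, B4galt1 at 0.0288 and Clic4 at 0.0330, and for Sos1 Polr2a at 0.0477, Actg1 at 0.0523 and Pdcd4 at 0.0540. For Rasa4 the nearest were farther off, Abcb4 at 0.256, Mfsd10 at 0.300 and Slc8a1 at 0.345. Each match rests on 4 libraries and is a description of these values alone.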

How the data were processed

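RNA sequencing of 4 lines, 1 library each, was used as the FPKM values per gene that the authors deposited. The submitters' processing notes name TopHat2 2.0.4, Cuffdiff and the mm9 build. Their settings and the annotation are not given in the sources used here. Listed starts were counted from 0, and 1 was added.

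Ratios were taken on log2(FPKM + 1) for genes averaging at least 1 FPKM, and 2-fold was the rule for a call. Single lines, each with 1 library, were compared by size alone. The paired test used limma 3.58.1 in R 4.3.3 with the lineage as a block, since each resistant line was derived from its parent, a trend in the prior variance and Benjamini-Hochberg adjustment. The lineage term of the same fit, over 2 lines per lineage, was added after the data were seen. Scripts were tested on simulated data.

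Depth came from how low FPKM values are spaced in 761 genes with 1 transcript, 3 kb or longer (whole within 0.15 fragments), and was 22080000, 19660000, 19220000 and 24520000 fragments for B117P, B117H, B140P and B140H. Counting intervals used the shortest curated transcript.

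The 9 genes and all lists were chosen with earlier results of these data known. Named by rule were the 9 genes, Omg, the nearest expressed gene on each side of Nf1, list genes past 2-fold within a lineage and 3 nearest patterns per called member. 1 further gene the rule names is not reported here. RefSeq promoters matched 8 of the 9. Alternatives were another pseudocount, filter, fold rule, scaling, and limma variants. Other tools were scipy 1.17.1, pandas 2.3.3, matplotlib 3.10.9 and numpy 2.4.6 under Python 3.11.15.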

Additional observations from a re-analysis of the deposited data

Results flagged for a closer look

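7 of the named genes moved in opposite directions in the 2 lineages, with both FPKM ratios outside 1 by more than counting error. The difference itself was not tested, since each lineage has 1 pair of libraries. Given as the log2 ratio in lineage B140 minus that in lineage B117, it was -3.09 for Epha2, 0.91 for Hras1, -0.87 for Nras, 0.60 for Evi2b, 0.48 for Wsb1, 0.39 for Rab11fip4 and -0.37 for Rasa1. Of these, Epha2 was past 2-fold in each lineage and the other 6 in neither. Epha2 was named because it passed that rule. How many of all expressed genes moved in opposite directions was not counted. The median log2 ratio over all expressed genes was itself of opposite sign, -0.03 in lineage B117 and 0.11 in lineage B140. For Rab11fip4 the interval in lineage B140 began at 1.005, without any correction for that median. For Nras the FPKM ratio of resistant to parental line was 1.18 (interval 1.11 to 1.26) in lineage B117 and 0.634 (0.602 to 0.668) in lineage B140. For Hras1 it was 0.757 (0.649 to 0.881) and 1.48 (1.31 to 1.68), the reverse order. The opposite signs of Evi2b and Wsb1 did not hold under upper-quartile scaling, where their lineage B140 ratios were -0.02 and -0.06. That of Wsb1 was also lost with centred libraries (-0.0026).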

How the results depend on the processing

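Among the 8 expressed genes, the calls within lineages (0 in B117 and Rasa4 in B140) were the same under all planned pseudocounts, filters, fold rules and scalings. A 4-fold rule reduced the calls from 4 to 1 between the parental lines, from 4 to 1 between the resistant lines and from 3 to 1 in both (settings for this last count were added after the data were seen), leaving Evi2a. The lineage term of limma, also added then, called 3. A pseudocount of 0.1 FPKM added Rasa4 between the parental lines (-1.07) and Hras1 between the resistant lines (1.03). Among the list genes named by rule, it also brought Dab2ip and Ier3 past 2-fold in lineage B140 and Phlda1 in lineage B117. Other list genes were not followed singly under this setting. Of them, Rap2a, Cbl and Etv4 were 2.44-, 2.06- and 2.18-fold lower in FPKM in B140H than in B140P. They missed the rule with the pseudocount of 1. Calls among all genes moved with the rules. In lineage B117, 465 became 707 with a pseudocount of 0.1, 308 with a minimum mean of 5 FPKM and 107 at 4-fold. In lineage B140, 397 became 647, 260 and 95. Between parental lines 1674 became 1028 with a minimum of 5 and 610 at 4-fold, and between resistant lines 1900 became 1225 and 650. Scaling turned the split in lineage B140 from 233 higher and 164 lower to 173 and 199 (centred) or 159 and 202 (upper quartile), and between the resistant lines from 975 and 925 to 761 and 1062 or 721 and 1088. In the paired limma fit, a minimum of 5 FPKM called 4 genes. Without the replicate block 0 were called and 39 had an unadjusted p under 0.05. Leaving out each library in turn, without the block, gave 0 to 6 calls, 6 of them without B140P. The paired log2 differences then ranged over -0.77 to 0.87 for Nf1, -2.35 to 1.99 for Evi2a, -0.73 to 0.43 for Evi2b, -0.66 to 0.26 for Nras, -0.41 to 0.57 for Hras1, -0.94 to 0.38 for Sos1, -0.36 to 0.28 for Rasa1 and 0.68 to 2.03 for Rasa4, with Benjamini-Hochberg adjusted p-values of 1. These fits set lines of different lineages against each other. Depth limits Rasgrp1 and Omg.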

Other observations

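Ksr1, a scaffold of the Raf, MEK and ERK kinases, lies near Nf1 on chromosome 11. It averaged 0.776 FPKM and so stayed out of the comparisons, and it is named after its values were seen. It measured 1.21 FPKM in B117P and 0.222 in B117H, 5.45-fold lower, and 1.33 FPKM in B140P and 0.347 in B140H, 3.82-fold lower. Unlike Nf1 it was alike in the parental lines and lower in both resistant lines, and with 1 library per line this was not tested. On the log2 scale with the pseudocount of 1 the ratios were -0.85 and -0.79, short of 2-fold.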
